A study of Mus musculus with 14 samples.

Results

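The genes of polyamine metabolism were followed in gastrocnemius, a calf muscle, of tumor-bearing mice fed the control diet with or without β-hydroxy-β-methylbutyrate (HMB), a supplement for muscle that the body also makes from leucine. The 9 genes were chosen by symbol for their known place in the pathway, with earlier results of these data already known. They were Odc1, Amd1, Srm and Sms of polyamine synthesis, Smox, Sat1 and Paox of breakdown and back-conversion, and the regulators Azin1 and Oaz1. Of these, 6 had a probeset under their own symbol and are described here, out of 19505 genes measured. Amd1, Paox and Oaz1 had no probeset named for them and were not analysed here.

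The HMB group held 7 male C57BL/6 mice on AIN-93G diet with HMB, and the control group 7 on AIN-93G diet alone. HMB feeding began 1 week before Panc02 pancreatic tumor cells were injected under the skin of mice of both groups. The mice were obtained as young adults, and their age at harvest is not stated in the sources used here. The treatment text names anti-PD1, an immune checkpoint antibody, without saying whether these 14 mice received it. The paper describes the muscle as from control and control + HMB mice, without naming anti-PD1 there. It states that every mouse of this experiment was injected with anti-PD1 or with an isotype control. The extraction text speaks of tumor although the tissue is labelled gastrocnemius. The study states that this transplant model does not cause cachexia, so the muscle came from mice with tumors but without that wasting syndrome. The comparison addressed what dietary HMB does to gene expression in muscle of mice with tumors.

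Polyamines are small, positively charged molecules that bind RNA and DNA and are needed for translation and cell growth. Ornithine decarboxylase makes putrescine from ornithine, spermidine synthase and spermine synthase extend it with aminopropyl groups derived from S-adenosylmethionine, and spermine oxidase and spermidine/spermine acetyltransferase lead the way back. In mouse muscle, Odc1, Smox and other enzymes of the pathway are known to be lower in atrophy.

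Each mouse had 1 Clariom S array, and values are given in log2 units of the deposited scale. The median gene of an array lay between 6.52 and 6.91. Between 22.1% and 24.5% of genes exceeded the 95th percentile of the intron control probesets, used here as the level of background (10.53 to 10.87). Muscle markers such as Acta1 and Ckm were high on every array, with the mean of 9 muscle markers between 16.17 and 17.86 in HMB mice and between 15.32 and 17.64 in control mice. Control 2 had the lowest of these means. There Myh2 was 12.23 and Mb 14.90, against at least 16.03 and 16.48 on the other arrays. Its mean of 8 slow fiber markers, 7.06, was also the lowest of all arrays. On control 7, the mean of 6 B cell markers was 11.20, against 3.10 to 3.82 in HMB mice and at most 3.78 in the other control mice, and the mean of 5 adipocyte markers was 14.37, against 8.66 to 12.74 in HMB mice. On HMB 4, the mean of 8 slow fiber markers was 16.07, against at most 13.60 in the other HMB mice and 14.45 in control mice. For the members, differences that HMB 4 or control 7 moved by over 1.5 times are given with and without them. For other genes and for lists this was done only in part.

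No member of the pathway passed the adjusted threshold. Across all 19505 genes, 0.0% had an adjusted p below 0.05 in limma, while 4.54% had an unadjusted p below 0.05 (885 genes, of which 458 were higher and 427 lower in HMB mice). The means of Odc1, Smox, Srm and Sms were higher in HMB mice and those of Sat1 and Azin1 lower, so 4 of 6 were higher, against 51.7% of all genes. Their median difference was 0.12 log2 units, against 0.01 over all genes. Without HMB 4 and control 7 the differences of Odc1 (-0.10) and Smox (-0.039) turned negative. Only Srm (0.30) and Sms (0.12) then stayed higher in HMB mice. In no member were the groups apart without overlap, which held for 0.0974% of all genes.

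**Figure D1:**
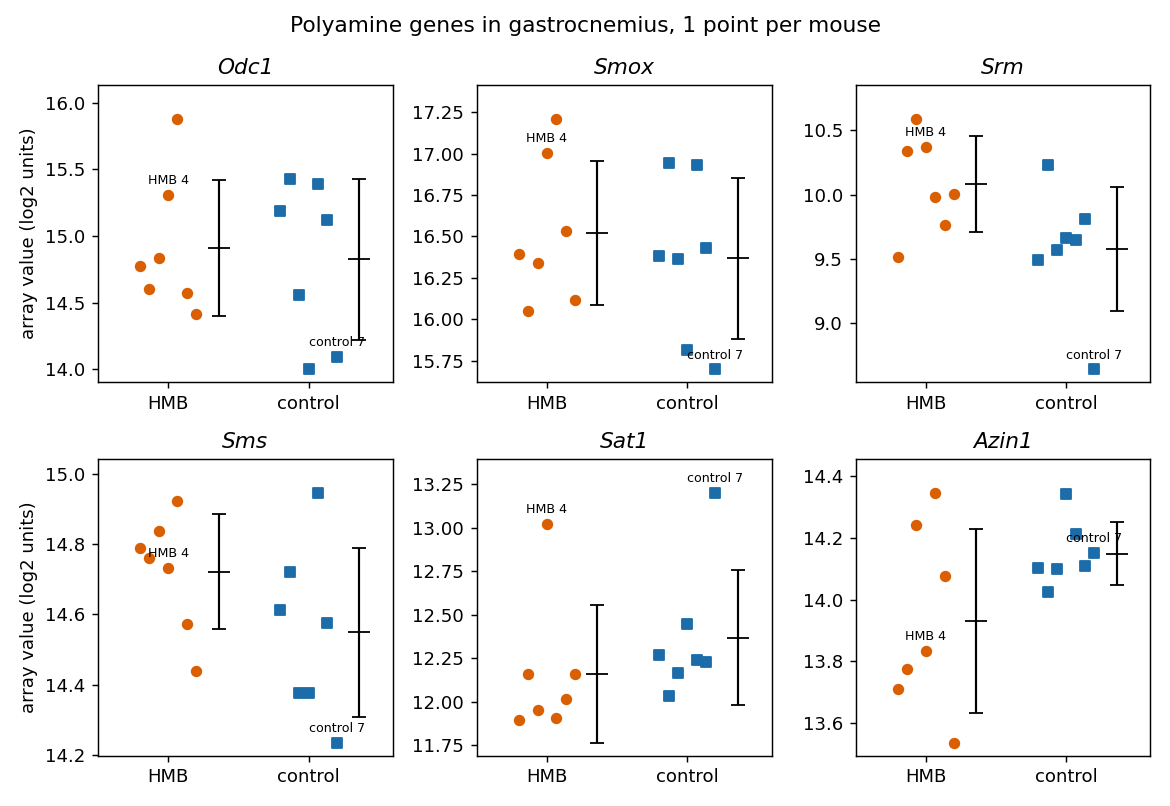
Log2 array values of 6 polyamine genes in gastrocnemius, 1 point per mouse, HMB (circles) left of control (squares), with mean and SD of 7 arrays beside the points. The groups overlap in every panel. HMB 4 and control 7 are marked, and they hold the highest Sat1 value of their groups.

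Odc1 encodes ornithine decarboxylase, the enzyme that commits ornithine to the pathway. It lay at 14.41, 14.77 and 15.87 in HMB mice (lowest, median and highest), against 13.999, 15.12 and 15.43 in control mice. HMB 5 was the highest of all arrays, while control 4 and control 7 were the lowest, and most HMB arrays fell inside the control range. The means were 14.91 ± 0.51 in HMB mice and 14.83 ± 0.60 in control mice (SD, n = 7 each), a difference of 0.09 (95% confidence interval -0.51 to 0.68, limma adjusted p = 0.996, exact permutation p = 0.784). The difference was 0.019 without HMB 4, and turned to -0.075 without HMB 5, -0.052 without control 4, -0.037 without control 7 and -0.10 without HMB 4 and control 7. Among genes above background, 89.5% had a smaller spread within groups than Odc1, whose pooled SD was 0.56.

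Srm encodes spermidine synthase, which turns putrescine into spermidine. Its values were 9.52, 10.01 and 10.59 in HMB mice, against 8.64, 9.65 and 10.23 in control mice. All 14 values lay below the 95th percentile of the intron controls of their array, so Srm was not told apart from background. HMB 2, HMB 3 and HMB 4 were above the highest control array, and control 7 was the lowest of all. The mean was 10.08 ± 0.37 in HMB mice and 9.58 ± 0.48 in control mice (SD, n = 7 each), a difference of 0.50 (95% confidence interval 0.03 to 0.98). Of the 6 genes, Srm was the only member with an unadjusted limma p below 0.05 (0.0389, exact permutation p = 0.0425), where 2.35% of all genes were higher at that level, and its adjusted p was 0.990. Its unadjusted p was above 0.05 when HMB 2, HMB 3, HMB 4, control 1, control 3 or control 7 was left out, with the smallest difference, 0.35, without control 7. Without HMB 4 and control 7 together the difference was 0.30, again with an unadjusted p above 0.05.

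Sms encodes spermine synthase, which adds the last aminopropyl group to make spermine. HMB mice had 14.44, 14.76 and 14.92, against 14.23, 14.58 and 14.95 in control mice. In HMB mice 6 of 7 values lay above the control mean, yet the highest value of all belonged to control 5. The difference of the means, 14.72 ± 0.16 in HMB mice and 14.55 ± 0.24 in control mice (SD, n = 7 each), was 0.17 (95% confidence interval -0.11 to 0.45, limma adjusted p = 0.990, exact permutation p = 0.138).

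Smox encodes spermine oxidase, which converts spermine back to spermidine and is abundant in skeletal muscle. Its values were 16.05, 16.40 and 17.21 in HMB mice, against 15.70, 16.38 and 16.94 in control mice. HMB 4 and HMB 5 were above every control array, and control 4 and control 7 were below every HMB array. The means were 16.52 ± 0.44 in HMB mice and 16.37 ± 0.48 in control mice (SD, n = 7 each), with a difference of 0.15 (95% confidence interval -0.35 to 0.66, limma adjusted p = 0.996, exact permutation p = 0.546). The difference ran from 0.039 without HMB 5 to 0.25 without control 2 when single arrays were left out (0.073 without HMB 4, 0.062 without control 4, 0.042 without control 7, 0.25 without control 5), and it was -0.039 without HMB 4 and control 7 together.

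Sat1 encodes the acetyltransferase that marks spermidine and spermine for export or oxidation. It lay at 11.90, 12.01 and 13.02 in HMB mice, against 12.03, 12.24 and 13.20 in control mice. HMB 4 and control 7 each stood well above the rest of their group, and 4 HMB arrays were below the lowest control array. The means were 12.16 ± 0.40 in HMB mice and 12.37 ± 0.39 in control mice (SD, n = 7 each), and the difference was -0.21 (95% confidence interval -0.65 to 0.23, limma adjusted p = 0.990, exact permutation p = 0.371). It was -0.35 without HMB 4, -0.07 without control 7 and -0.22 without both, in each case with an unadjusted p above 0.05. Over the 14 arrays, Sat1 followed the adipocyte marker mean with r = 0.71 (rho = 0.70) and the slow fiber marker mean with r = 0.60 (rho = 0.75). Without HMB 4 and control 7, r was 0.52 and 0.74. Neither passed adjustment over the 60 relations of members with marker lists (permutation test, adjusted p = 0.327 and 0.386 for r, and 0.183 each for rho). The smallest p for r among the 60 was that of Smox with the endothelial marker mean (r = -0.66, permutation p = 0.00908, adjusted p = 0.327). In bulk muscle, fewer cells of a type and less RNA per cell cannot be told apart.

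Azin1 encodes antizyme inhibitor, which frees ornithine decarboxylase from antizyme and so spares it from degradation. HMB mice had 13.54, 13.84 and 14.35, against 14.02, 14.11 and 14.34 in control mice. The 7 control values fell within 0.32 of each other and the 7 HMB values within 0.81, and 4 HMB arrays were below every control array. The means were 13.93 ± 0.30 in HMB mice and 14.15 ± 0.10 in control mice (SD, n = 7 each), a difference of -0.22 (95% confidence interval -0.51 to 0.07, limma adjusted p = 0.990, exact permutation p = 0.0892). Without HMB 5, itself the highest array, the difference was -0.29 and the unadjusted limma p fell below 0.05. The difference in spread was not tested.

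Odc1 and Smox varied together from mouse to mouse more closely than any other pair of members. After the mean of each diet was removed, their values correlated across the 14 arrays with r = 0.93 (permutation p = 6e-05, adjusted p = 0.0009 over 15 pairs) and rho = 0.92 (adjusted p = 0.0022). The correlation was 0.92 within the HMB mice and 0.93 within the control mice. Without HMB 5 and control 4, the arrays farthest from the median of Odc1, it was 0.90, and without HMB 4 and control 7 it was 0.91. The same mice were high in both genes in both diets, HMB 5 and HMB 4 in the HMB group and control 2 and control 5 in the control group. Over the 14 arrays the slow fiber marker mean had r = -0.30 with Odc1 and -0.27 with Smox. Neither passed adjustment over the 60 relations with marker lists (permutation test, adjusted p = 0.470 and 0.519). Without HMB 4 and control 7, r was -0.53 and -0.59. The part of fiber type in the Odc1 and Smox values was not tested.

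**Figure D2:**
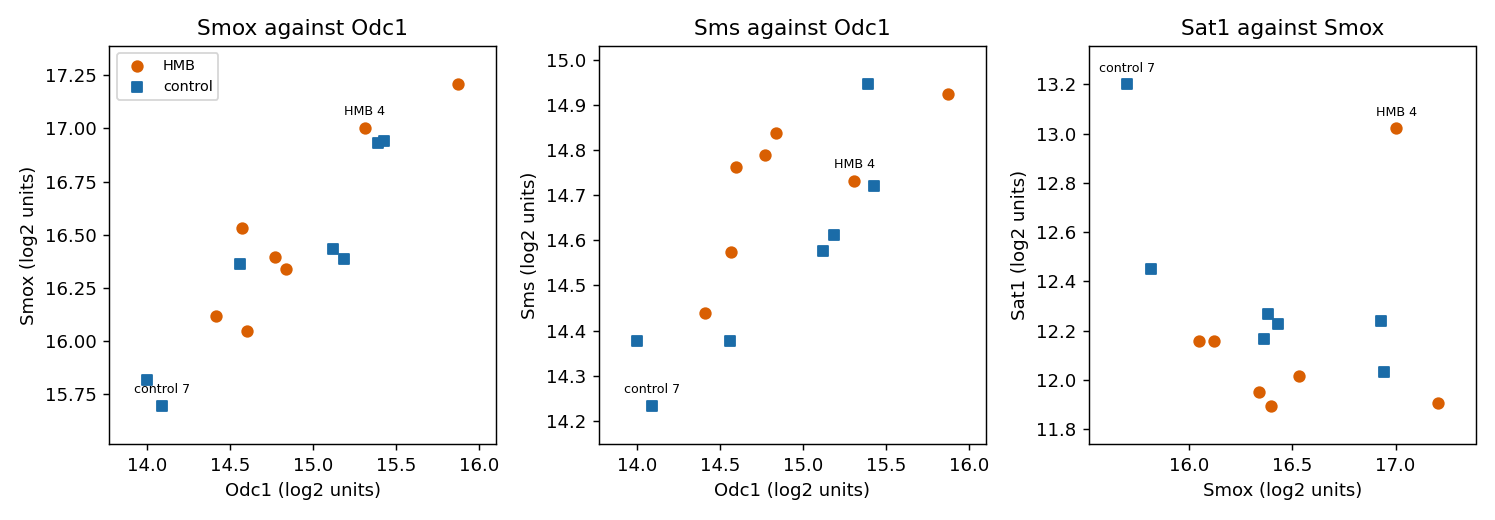
Log2 array values of Smox against Odc1, Sms against Odc1 and Sat1 against Smox, 1 point per mouse, HMB as circles and control as squares. Odc1 and Smox lie along a line in both diets (r = 0.93), and in the panel of Sat1 the arrays HMB 4 and control 7 stand away from the others.

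The 250 bases of sequence upstream of the start of each of these genes, from RefSeq on GRCm38.p6, are shown because Odc1 and Smox are the members that varied together most closely. Odc1 is on the plus strand at chr12:17544623-17544872 and Smox on the plus strand at chr2:131491612-131491861. Capitals mark the GC box, GGGCGG read on either strand.
Odc1: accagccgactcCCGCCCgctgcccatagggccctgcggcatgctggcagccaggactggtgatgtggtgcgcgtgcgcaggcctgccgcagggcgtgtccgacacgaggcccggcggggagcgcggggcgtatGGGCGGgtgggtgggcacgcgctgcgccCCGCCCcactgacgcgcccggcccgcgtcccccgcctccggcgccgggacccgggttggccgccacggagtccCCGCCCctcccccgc
Smox: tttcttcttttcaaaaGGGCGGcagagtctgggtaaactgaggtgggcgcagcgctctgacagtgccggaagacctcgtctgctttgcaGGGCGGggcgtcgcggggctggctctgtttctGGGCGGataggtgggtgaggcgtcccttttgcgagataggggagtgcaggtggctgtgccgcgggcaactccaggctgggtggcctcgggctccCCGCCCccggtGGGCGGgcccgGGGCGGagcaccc
The GC box occurred 4 times in the Odc1 window and 6 times in the Smox window, and 32.7% of 32851 promoter windows of that length held it at least 1 time. It was not particular to this pair, as Amd1, Sms, Sat1 and Paox also had a window with it, while Oaz1 did not. GC content was 80.0% in Odc1 and 68.0% in Smox. Neither window held the E-box CACGTG, found in 6.02% of all windows, or the TATA box TATAAA, found in 12.4%. A match is a description of these letters and not a binding site.

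Sms varied with Odc1, though HMB 4, high in Odc1 and Smox, ranked only 5 of 7 HMB arrays in Sms. Its correlation with Odc1 was r = 0.82 (permutation p = 0.0011, adjusted p = 0.0082) and rho = 0.82 (adjusted p = 0.0115), with 0.71 within the HMB mice and 0.89 within the control mice. It was 0.82 without the arrays farthest from the median of Odc1 and 0.80 without HMB 4 and control 7. With Smox, Sms had r = 0.73 (permutation p = 0.00538, adjusted p = 0.0269) but rho = 0.67 (adjusted p = 0.0782), and r was 0.48 within the HMB mice and 0.90 within the control mice. Its r fell to 0.63 without HMB 5 and control 7, the arrays farthest from the median of Smox. That pair lost the threshold when HMB 5, HMB 7, control 2, control 4, control 5 or control 7 was left out, with r still between 0.66 and 0.71, and also without HMB 4 and control 7 together (r = 0.71, adjusted p = 0.0598).

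The other 12 pairs did not pass the threshold over all 14 arrays. Sat1 had r = -0.29 to Odc1 and -0.26 to Smox, and these values turned on HMB 4 and control 7. Without HMB 4 they were -0.63 (adjusted p = 0.0224) and -0.71 (adjusted p = 0.00398), and without control 7 they were -0.04 and 0.06. Without both arrays r was -0.67 with Odc1 (adjusted p = 0.0751) and -0.75 with Smox (adjusted p = 0.0449), while by rho neither passed (adjusted p = 0.267 and 0.0823). Azin1 had r = 0.23 with Odc1, where the HMB mice gave 0.62 and the control mice -0.58, a difference between diets that was not tested. Srm had r = 0.42 with Odc1 and 0.40 with Smox, and without control 7 these were 0.21 and 0.15.

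**Figure D3:**
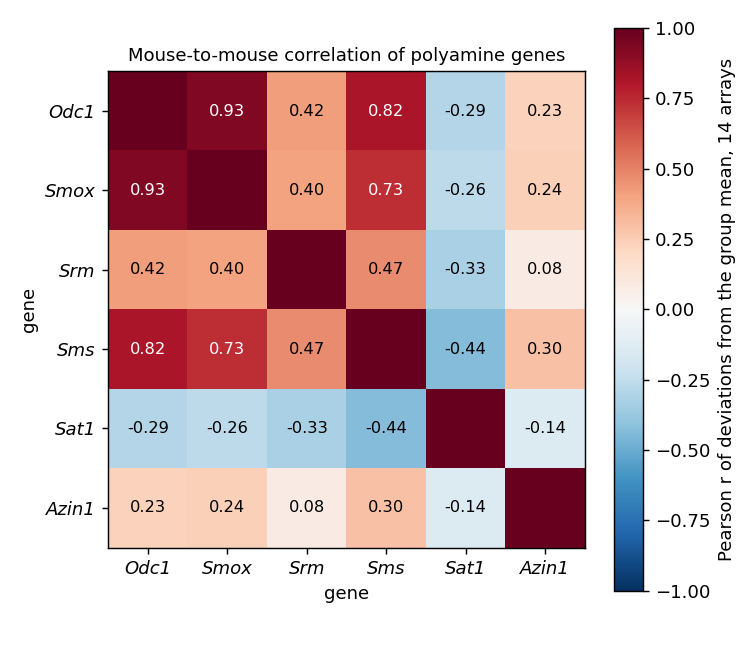
Pearson r between the 6 polyamine genes, from deviations from the diet means over 14 arrays, with color from -1 (blue) to 1 (red). Odc1, Smox and Sms form the positive block (0.93, 0.82 and 0.73), and Sat1 has negative values with every other member. Without control 7, Sat1 had r = 0.06 with Smox and 0.23 with Srm.

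Genes on shared arrays also share whatever scales an array, and the median r over the 5589 other genes above background on at least 1 array was 0.11 with Odc1 and 0.10 with Smox. Ranked among those genes over all 14 arrays, Smox was the gene most like Odc1. Next came Asb5, an ankyrin repeat and SOCS box protein expressed in muscle (r = 0.92, rho = 0.89), and Zfand5, a zinc finger protein that stimulates the proteasome (r = 0.90, rho = 0.82). Without HMB 4 and control 7, Asb5 was closer to Odc1 (r = 0.94) than Smox was (r = 0.91). The genes most like Smox were Sra1, a steroid receptor RNA activator (r = 0.94, rho = 0.91), and Comtd1, a catechol-O-methyltransferase domain protein (r = 0.94, rho = 0.93), with Odc1 at rank 3. Sra1 was above background on only 3 of 14 arrays, HMB 4, HMB 5 and control 5, so on the others its value cannot be told apart from background, while Asb5, Zfand5 and Comtd1 were above it on all 14. Sms ranked 20 for Odc1 and 80 for Smox. None of these neighbors passed the threshold between diets. The difference was 0.11 for Asb5, 0.06 for Zfand5, 0.38 for Sra1 and 0.14 for Comtd1, and the limma adjusted p values were 0.990 to 0.996. These differences are given over all 14 arrays only, and control 7 was the lowest array in Asb5, Zfand5 and Sra1. Asb5 lay at 15.94, 16.05 and 16.74 in HMB mice, against 15.55, 16.07 and 16.39 in control mice, with HMB 5 highest and control 7 lowest, as in Smox.

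S-adenosylmethionine decarboxylase supplies the aminopropyl groups, and its gene Amd1 was not measured under that name. The array does name Amd2, a close copy of Amd1 in the mouse, and whether its probeset separates them is not given, so this value is uncertain. Amd2, added after its values were seen, averaged 15.74 ± 0.19 in HMB mice and 15.65 ± 0.24 in control mice (SD, n = 7 each), a difference of 0.09 (limma adjusted p = 0.996). That difference is over all arrays, of which control 7 was the lowest. Amd2 correlated with Odc1 at r = 0.70 and with Smox at r = 0.72, at ranks 135 and 97 of 5589.

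Beyond the members, 46 of 51 listed genes of the wider pathway were measured, and none passed the adjusted threshold. At an unadjusted p below 0.05, 2 were higher and 1 lower in HMB mice, against 2.35% and 2.19% of all genes. By sign of the mean 26 were higher (56.5%, against 51.7% of all genes) and 20 lower, with a median difference of 0.07. Only 18 of the 46 were above background on at least 1 array, so most of these signs come from values at background level.

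In the antizyme family and related enzymes, 5 of 8 had higher means in HMB mice (median difference 0.07, and 0.0048 without control 7). Only 2 of the 8 were above background on at least 1 array. Azin2, an antizyme inhibitor related to Azin1, averaged 5.32 ± 0.49 in HMB mice and 4.72 ± 0.36 in control mice (SD, n = 7 each), a difference of 0.59 (limma p = 0.0168, adjusted p = 0.990, exact permutation p = 0.0268). It lay below the median of the intron controls on all arrays, so the value reads background. Among transport genes 7 of 11 had higher means (median 0.08), and 2 of the 11 were above background on at least 1 array. Slc12a8, reported as a polyamine and nicotinamide mononucleotide transporter, averaged 3.99 ± 0.40 in HMB mice and 3.34 ± 0.49 in control mice (SD, n = 7 each), with a difference of 0.65 (limma p = 0.0123, adjusted p = 0.990, exact permutation p = 0.0204), and it too was below the intron controls' median.

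In the supply of arginine and ornithine 3 of 11 means were higher and 8 lower in HMB mice. The median difference was -0.08, but it was 0.18 over the 3 of these genes above background on at least 1 array, -0.0068 with each array centred on its median, and -0.24 without control 7, so the list has no settled direction. Gatm, the amidinotransferase that takes arginine into creatine synthesis, was at 6.90, 8.12 and 8.88 in HMB mice, against 8.55, 8.85 and 9.20 in control mice. In the HMB group 5 arrays were below every control array, and HMB 5 was the lowest. The mean of 4 Schwann cell markers was 7.79, 9.39 and 9.73 in HMB mice, against 9.67, 10.11 and 10.32 in control mice, with all HMB arrays but HMB 7 below every control array and HMB 5 lowest, and its part in the Gatm values was not tested. The Gatm means were 8.15 ± 0.68 in HMB mice and 8.88 ± 0.22 in control mice (SD, n = 7 each), a difference of -0.73 (95% confidence interval -1.27 to -0.18, limma p = 0.0125, adjusted p = 0.990, exact permutation p = 0.0140). Its values were below the 95th percentile of the intron controls on every array. Leaving out any single array kept the difference between -0.85 and -0.52.

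Spermidine is also the donor for hypusine, the modified lysine of the translation factor eIF5A. All 4 genes of this step had higher means in HMB mice, as did 51.7% of all genes. Their median difference was 0.22, and none passed an unadjusted p of 0.05. Only Dhps and Eif5a of the 4 were above background on at least 1 array, and Dohh and Eif5a2 were below it on every array. Dhps, deoxyhypusine synthase, averaged 11.21 ± 0.25 in HMB mice and 10.90 ± 0.40 in control mice (SD, n = 7 each), a difference of 0.31 (limma p = 0.106, exact permutation p = 0.0857). Control 7 was far below the rest, and without it the Dhps difference was 0.17 and the median difference of the 4 genes 0.12. Without HMB 4 and control 7 together the Dhps difference was also 0.17. Eif5a2, the other eIF5A gene, averaged 6.96 ± 0.73 in HMB mice and 6.26 ± 0.59 in control mice (SD, n = 7 each), a difference of 0.70 (limma p = 0.0503, exact permutation p = 0.0787), at background level. In methionine supply and salvage 5 of 7 means were higher (median 0.12), and 4 of the 7 genes were above background on at least 1 array. Mat2b, a subunit of methionine adenosyltransferase, differed by 0.18 (exact permutation p = 0.155), and by 0.10 without HMB 4 and control 7. Apip, an enzyme of methionine salvage, differed by 0.16 (exact permutation p = 0.209), and by 0.10 without HMB 5.

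**Figure D4:**
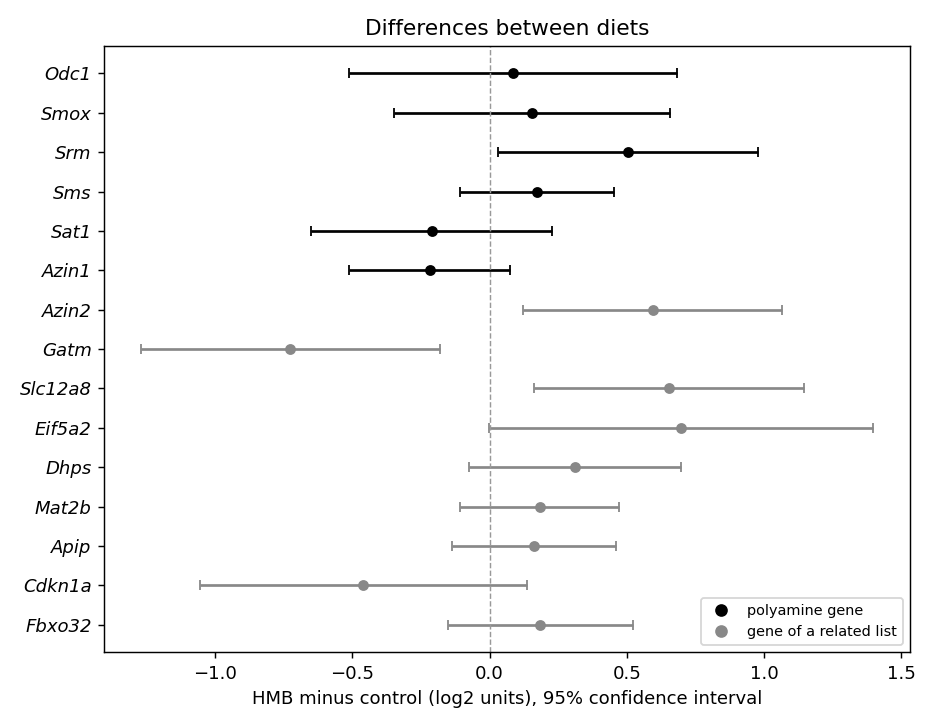
Differences between diets, HMB minus control in log2 units, with 95% confidence intervals from limma, for 6 polyamine genes (black) and 9 genes of related lists (gray). The intervals of Srm, Azin2, Gatm and Slc12a8 leave out 0 before adjustment over all genes, and those of Odc1, Smox, Sms, Sat1 and Azin1 include it.

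Since several polyamine genes are known to be lower in atrophying muscle, the members were set against Fbxo32 and Trim63, ubiquitin ligases that rise in atrophy, and Cdkn1a, a cell cycle inhibitor induced in denervated muscle. In the panel of 5 measured atrophy and regulator genes, 2 means were higher and 3 lower in HMB mice and none passed an unadjusted p of 0.05. Fbxo32 averaged 15.48 ± 0.34 in HMB mice and 15.29 ± 0.19 in control mice (SD, n = 7 each), a difference of 0.19 (limma p = 0.259, exact permutation p = 0.237), and of 0.096 without HMB 5. Cdkn1a averaged 10.96 ± 0.62 in HMB mice and 11.42 ± 0.48 in control mice (SD, n = 7 each), a difference of -0.46 (limma p = 0.120, exact permutation p = 0.147), and of -0.28 without HMB 6. Of 18 pairs of a member and a marker, 0 passed the adjusted threshold. The closest were Smox and Trim63 (r = 0.62, rho = 0.53, permutation p = 0.0216, adjusted p = 0.390) and Odc1 and Trim63 (r = 0.54, rho = 0.39, permutation p = 0.0485, adjusted p = 0.437), both of positive sign. Within the HMB mice r was 0.86 for Smox and 0.84 for Odc1, against 0.35 and 0.23 within the control mice. That difference between diets was not tested. Without HMB 5, r over both diets was 0.51 for Smox and 0.38 for Odc1.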

How the data were processed

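Total RNA of gastrocnemius from 14 mice was labelled with the WT PLUS kit and measured on Clariom S arrays, 1 per mouse. The deposited values, as the authors made them, were read as log2 probeset intensities, inferred from their range. The background correction, summarization and normalization are not stated in the sources used here. The highest values (19.21 to 19.54) exceed a scanner's range on that scale, so differences are in log2 units and no fold is given. Groups came from the titles.

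Of 22206 gene probesets, 19572 with 1 symbol were kept and averaged to 19505 genes (55 had several probesets), and 2634 without a symbol were left out. Symbols were matched to RefSeq by gene ID. The 5222 intron controls gave the background. The diets were compared by limma 3.58.1 under R 4.3.3, in a two-sided test from lmFit and eBayes with Benjamini-Hochberg adjustment over all genes and a threshold of 0.05. Exact permutation tests used all 3432 splits of the arrays (two-sided, smallest possible p 0.000583). Correlations used deviations from the diet means, with 100000 permutations within diets and adjustment within each family (15, 18 and 60 relations), in Python 3.11.15 with scipy 1.17.1. Both scripts were tested on simulated data. The correlations with marker list means were added after seeing the data.

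The number of mice limits the precision, and p values set each difference or correlation against the variation between these 14 mice. Named are all members, genes of the related lists with unadjusted p below 0.05 or otherwise the 2 of smallest p in each list, and the 3 genes most correlated with Odc1 and with Smox. Members and lists were chosen with earlier results of these data known. Promoter windows came from RefSeq on GRCm38.p6 and were cut to 250 bases before the start. Srm and Azin1 had no window. The alternatives were renewed quantile normalization, centring on array medians, filters on dim genes, the brightest probeset, all gene probesets, a trended robust prior, array weights, a replicate block, an unpaired t statistic as named in the methods, and fits without each array.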

Additional observations from a re-analysis of the deposited data

Results flagged for a closer look

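Of 30 groups tested (a gene within a diet), 3 held a value that lay far from the other 6 arrays by Dixon's criterion (critical ratio 0.568), where chance flags about 1 in 20 groups. Sat1 was 13.02 on HMB 4, with the next HMB array at 12.16 (ratio 0.77). Sat1 was 13.20 on control 7, with the next control array at 12.45 (ratio 0.64). Dhps was 10.03 on control 7, with the next control array at 10.86 (ratio 0.73). HMB 4 also had the highest slow fiber (16.07), macrophage (10.33) and matrix (14.23) marker means of its diet, and control 7 the highest B cell (11.20), T cell (10.02) and adipocyte (14.37) marker means of all arrays. Their part in the Dhps value was not tested.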

How the results depend on the processing

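In every setting tried 0 genes passed the adjusted threshold, and no member did. The methods' t-test gave 0 genes after Benjamini-Hochberg adjustment and 853 at an unadjusted p below 0.05, against 885 by limma. Arrays of the same number in the 2 diets showed little shared deviation (correlations -0.07 to 0.12, 1 of 7 best with its own number). This check could miss a weak pairing, and the arrays were treated as unpaired. With the replicate block these counts were 0 and 958, and no call of a member changed. The Odc1 difference (0.09) became -0.069 with array weights, -0.10 without HMB 4 and control 7, and ran from -0.075 to 0.19 when single arrays were left out (below 0 without HMB 5, control 4 or control 7). The Smox difference (0.15) became -0.039 without HMB 4 and control 7. The median of the arginine and ornithine list (-0.08) became 0.18 when only its 3 genes above background were kept. Over fits without single arrays the list medians ran from -0.24 to -0.015 (arginine and ornithine), 0.0048 to 0.13 (related enzymes), 0.015 to 0.11 (transport), 0.12 to 0.29 (hypusination), 0.026 to 0.19 (methionine) and -0.15 to 0.044 (atrophy panel). The atrophy panel median (-0.058) was above 0 without HMB 1, HMB 2, control 2 or control 6, and 0.013 with centring. The number of member pairs past the threshold (3) ran from 2 to 5 when single arrays were left out, with 5 without HMB 4, where Odc1 and Sat1 and also Smox and Sat1 passed. The causes were not tested. Centring each array on its median moved the median difference of all genes to 0.08 and the split at unadjusted p below 0.05 to 631 higher and 242 lower, against 458 and 427. Members then differed by 0.16 (Odc1), 0.22 (Smox), 0.57 (Srm), 0.24 (Sms), -0.14 (Sat1) and -0.15 (Azin1), and Sms and Azin1 passed too, giving 4 pairs (r = 0.61, adjusted p = 0.0351). Srm has no value among genes above background.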
